A study of Mus musculus with 23 samples.

Results

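Class I antigen presentation was followed through 10 of the 8251 genes that the array names by a symbol of their own, all of the major histocompatibility complex (MHC) class I pathway. Their RNA was measured in whole hippocampus from males of the strain C57BL/6JNIA, 14 aged 15 months and 9 aged 2 months. The members were B2m, H2-D1, H2-K1, H2-M3, H2-Q4, H2-Q10, Tap1, Tap2, Tapbp and Psmb8. They were found on the array as the probe sets whose platform annotation gives 1 of these symbols and no other, which were 18 of 12488 probe sets. All mice, young and middle-aged, were housed in groups and had Morris water maze training, which probes spatial memory, before the hippocampus was taken. No transgene, drug or lesion is named in the labels, and age is the only difference between the groups that they name. The running numbers of the mice in the titles form separate blocks by age, so sample order and age cannot be told apart. Each mouse had its own array of biotin-labelled RNA, and a value is a MAS5 signal, a brightness in arbitrary units that Affymetrix software computes from the probes of a set. The comparison asks which class I transcripts differ between the young and the middle-aged hippocampus.

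MHC class I molecules carry short peptides from inside the cell to its surface, where CD8 T cells and natural killer cells read them. A heavy chain, encoded by an H2 gene, pairs with the light chain beta-2 microglobulin, encoded by B2m. The peptides are cut by the proteasome, of which Psmb8 encodes an interferon-inducible catalytic subunit, pumped into the endoplasmic reticulum by the transporter that Tap1 and Tap2 form, and loaded with the help of tapasin, the product of Tapbp. In the brain, microglia and endothelial cells express class I genes, and neurons of the hippocampus also do, where class I proteins have been studied for a role in synaptic plasticity.

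The promoters of the heavy chain genes and B2m hold letters of elements known from class I genes, and are shown so that these can be compared. The promoter sequences are those of RefSeq on the build GRCm38.p6, in windows of 300 bases that run from 250 before to 50 after a start site. Of the 10 members 9 matched, H2-K1 with more than 1 window and Tap2 with none. Each stretch printed here lies before the start site, is written 5′ to 3′ on the gene's strand, and has matches to TTTCACTTC, TTTCNNTTTC, GGGGATTCCCC, GGGACTTTCC, GGGANTTCCC and TGACGC, searched on both strands, in capitals. The letters of TTTCNNTTTC and GGGACTTTCC were read from the B2m promoter, those of GGGGATTCCCC from H2-K1 and of GGGANTTCCC from H2-Q4, each with the textbook element in mind, so a match in that gene itself is given by the choice. B2m lies at chr2:122147542-122147642 on the plus strand, H2-K1 at chr17:34000355-34000463 on the minus strand, and on the plus strand H2-D1 at chr17:35262918-35263026, H2-Q4 at chr17:35379438-35379546, H2-M3 at chr17:37270107-37270219 and H2-Q10 at chr17:35469908-35470016.
B2m: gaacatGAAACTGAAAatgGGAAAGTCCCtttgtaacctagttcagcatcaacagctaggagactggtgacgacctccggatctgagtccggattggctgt
H2-K1: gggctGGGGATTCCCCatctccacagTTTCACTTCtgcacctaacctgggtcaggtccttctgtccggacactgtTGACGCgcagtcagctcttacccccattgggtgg
H2-D1: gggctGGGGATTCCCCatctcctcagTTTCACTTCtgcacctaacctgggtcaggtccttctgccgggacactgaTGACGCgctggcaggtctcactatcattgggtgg
H2-Q4: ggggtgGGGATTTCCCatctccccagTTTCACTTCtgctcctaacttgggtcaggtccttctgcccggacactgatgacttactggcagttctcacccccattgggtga
H2-M3: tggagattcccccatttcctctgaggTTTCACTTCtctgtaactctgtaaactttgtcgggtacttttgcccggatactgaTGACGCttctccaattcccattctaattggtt
H2-Q10: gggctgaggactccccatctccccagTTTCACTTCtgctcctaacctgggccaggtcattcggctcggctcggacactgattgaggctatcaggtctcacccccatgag

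TTTCACTTC is the core of the interferon-stimulated response element described in class I promoters, to which interferon regulatory factors bind. It stood in the promoters of all 5 heavy chain members, against 0.505% of 32851 promoter windows. This motif too was chosen after the members' sequences were seen, and several of these promoters resemble each other, so the count is a description. GGGGATTCCCC, the class I kappa B site, stood in those of H2-K1 and H2-D1 and in 0.0304% of all windows, with H2-Q6 as the only other gene whose window held both of these motifs. H2-Q4 had GGGATTTCCC, which fits the pattern GGGANTTCCC read from it and found in 0.359% of windows. TGACGC, the X2 box of the class I enhancer, stood before the start of H2-K1, H2-D1 and H2-M3, and in 7.4% of windows. In H2-Q4 the only match was on the opposite strand after the start site, away from the place of the X2 box in those genes. In H2-K1, H2-D1 and H2-Q4 the Y box core ATTGG (37.4% of windows) began 74 bases after the first base of TTTCACTTC, and in H2-M3 80 bases after it. B2m held TTTCNNTTTC (3.44% of windows) and GGGACTTTCC (0.155%), both on the opposite strand and both read from it. Neither TTTCACTTC nor GGGGATTCCCC was found in the windows of Tap1, Tapbp or Psmb8. Over 100 bases placed on TTTCACTTC without gaps, H2-D1 was identical to H2-K1 at 94 positions, to H2-Q4 at 83, to H2-Q10 at 74 and to H2-M3 at 32. These are matches of letters, and no binding was measured.

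A probe set name ends in _at, and a letter before it marks probes that can be shared: _f_at and _s_at with other transcripts, _g_at with another probe set of the gene, while _r_at marks a set chosen under relaxed rules. Of the 18 member probe sets 10 bore such a letter, and every probe set of H2-D1, H2-Q4 and H2-Q10 did. A signal of the heavy chain sets marked _f_at or _s_at can therefore hold RNA of related class I genes. A probe set was tested if its mean log2(signal + 16) over all mice exceeded the 40th percentile over non-control probe sets (91.7 as a signal). This kept 14 member probe sets, at least 1 for each of the 10 genes, and 7453 of 12422 overall. Changes are 15-month minus 2-month on the log2(signal + 16) scale, from limma across all 7453 probe sets, and p-values were adjusted over all of them by Benjamini-Hochberg.

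Arrays had median signals from 154.9 to 187.95. That of 15-month replicate 13 differed most, its 25th percentile being 53.6 while the rest ranged from 30.3 to 41.9. A low 99th percentile, 6622 to 6966 where the rest had 7281 to 8678, marked 4 arrays, those of replicates 3 and 12 at 15 months and of replicates 7 and 8 at 2 months. Of 8 markers of hippocampal neurons on the array, among them Snap25 and Camk2a, 7 were bright enough to be tested and none passed the test described above. They leaned lower at 15 months, with 1 of the 7 changes above 0 (median -0.08) and Calb1 lower at an unadjusted limma p of 0.0321. The summed signal of 5 choroid plexus markers ran from 415 to 11662 at 15 months and from 271 to 10649 at 2 months, so that mice of both ages varied widely in RNA of this neighbouring tissue.

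At 15 months B2m was higher. The tested probe sets of the heavy chain genes H2-D1, H2-K1, H2-Q4 and H2-M3, all with letters for shared probes, leaned the same way without passing the test. H2-Q10, Tap1, Tap2, Tapbp and Psmb8 differed little. B2m rose 1.52-fold (95% interval 1.26 to 1.82), and it was the only member probe set to pass. The background of such rises was 0.335% of the probe sets tested, that of falls, of which the members had 0, was 0.0403%, and that of calls in either direction was 0.376%. In 0 of the 14 did the ages separate without overlap, the higher way round, against 0.0537% of tested probe sets. At an unadjusted p under 0.05, 7 of the 14 tested member probe sets were higher and 0 lower, with backgrounds of 5.89% higher and 6.51% lower. Without the filter 8 of all 18 were higher at that level, against 4.46% of 12422, and 16 of 18 had a change above 0, against 44.8%. The median change of the 18 was 0.17, beside -0.02 for all probe sets. The members were chosen with results of these data known, so these shares describe them and are no test of the pathway.

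B2m encodes the light chain that every classical class I molecule needs to reach the cell surface. Its signal in the 15-month mice ran from 879 to 2224 with a median of 1721, and in the 2-month mice from 688.5 to 1421 with a median of 1095. The groups overlapped, but 12 of the 14 older mice lay above the highest young mouse. The 15-month mouse at 879 was replicate 13, whose array differed most, and the next lowest of that age was at 1390. B2m was at 1722 ± 348 (SD, n = 14) at 15 months and at 1129 ± 231 (SD, n = 9) at 2 months, a log2 change of 0.60 ± 0.13 (SE; adjusted p = 0.0234). Of the 14 older mice 13 exceeded the mean of the young on the log2 scale. In whole tissue more cells of a type and more RNA per cell cannot be told apart. By p it ranked 24 among the 7453 probe sets.

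This call was close to the threshold. It was lost without 2-month replicate 1 (adjusted p = 0.0702), replicate 3 (0.0649) or replicate 7 (0.0527), without the 4 arrays of low 99th percentile (0.0664) and with the exact Mann-Whitney test (0.0536). Without 15-month replicate 13 the adjusted p was 0.00133 and the log2 change 0.67. Over all 33 alternatives the log2 change of B2m stayed between 0.52 and 0.67. The filter settings, the plain variance model and the Mann-Whitney test leave this change as it is, so they are no check of its size. Where leaving out arrays lost the call, the change was 0.52 to 0.61, so its direction and rough size held there.

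**Figure D1:**
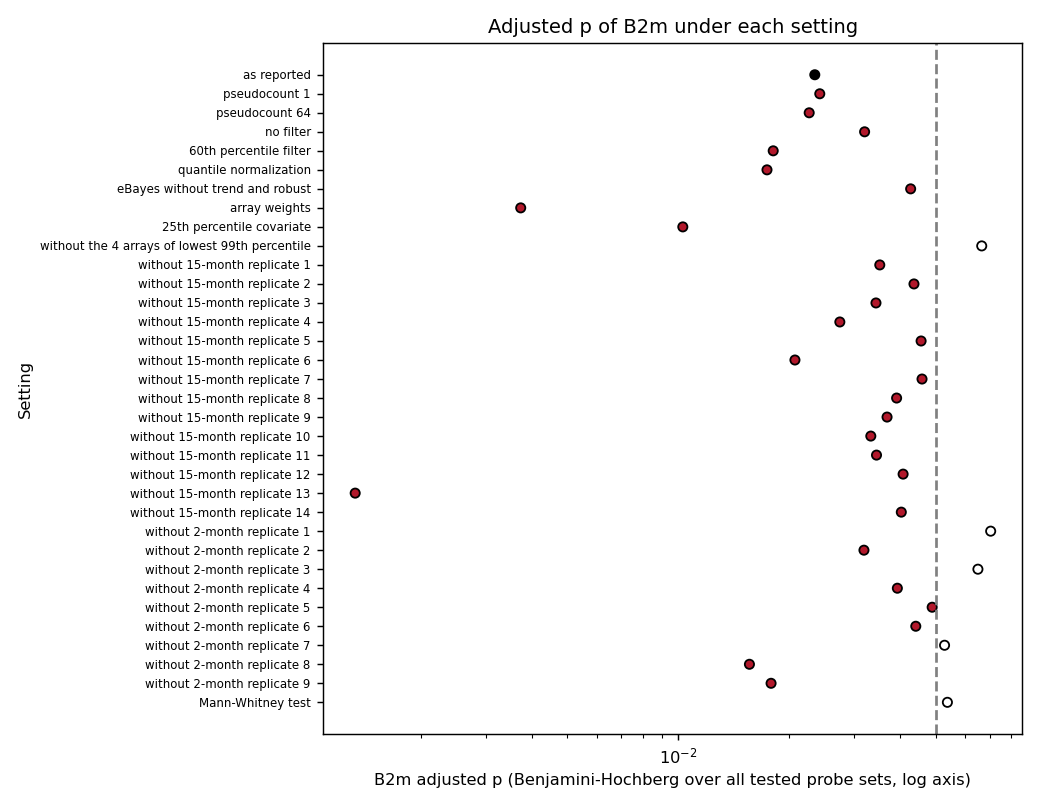
Adjusted p of B2m (x axis, log scale) under each setting (y axis), in which the dashed line is at 0.05, the black point is the value as reported (0.0234), red points pass and open points do not. Most settings lie between 0.01 and 0.05, the lowest is 0.00133 without 15-month replicate 13 and the highest 0.0702 without 2-month replicate 1.

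H2-K1 and H2-D1 encode the classical heavy chains of this strain, which present peptides to CD8 T cells. H2-D1 had 3 probe sets. In the brighter pair the 15-month mice ran from 666 to 1086 (median 746) in 101886_f_at, against 545 to 779 (median 627) at 2 months, and from 529 to 1290 (median 922) in 97540_f_at, against 549 to 844 (median 727). Both groups overlapped in each probe set, with 6 and 9 of the 14 older mice above the highest young one. The log2 changes were 0.29 ± 0.09 (SE; adjusted p = 0.172) and 0.32 ± 0.11 (adjusted p = 0.234). In 101886_f_at all 14 older mice were above the 2-month mean of the log2 values, a pattern that 1.1% of tested probe sets showed. The third probe set, 97541_f_at, was below the filter, at 60.5 ± 29.7 (SD, n = 14) and 33.1 ± 20.6 (SD, n = 9), and had a change of 0.64 in the fit without the filter (adjusted p = 0.370).

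H2-K1 also had 3 probe sets, and they did not give the same size of difference. In the brightest, 93120_f_at, the 15-month mice were at 783 to 1471 (median 1082) and the 2-month mice at 734 to 1047 (median 909). The change was 0.25 ± 0.09 (SE; adjusted p = 0.258), with 7 older mice above the young range. In the dim set 97125_f_at, the older mice were at 43.0 to 209 (median 152) and the young at 34.8 to 131 (median 99.6), a change of 0.62 ± 0.25 (adjusted p = 0.311). This probe set had a mean of 87.1 at 2 months, under the signal of the filter, so its place among those tested rests on the older mice. The third, 97700_at, has no letter for shared probes and lay below the filter, at 88.2 ± 27.7 (SD, n = 14) and 84.7 ± 36.8 (SD, n = 9), with a change of 0.09 (adjusted p = 0.922 without the filter).

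The non-classical heavy chains differed among themselves. H2-Q4, a gene of the Q region, had the largest change of the tested members over all mice, 0.67 ± 0.20 (SE; adjusted p = 0.149), or 1.59-fold (95% interval 1.20 to 2.11). Without 2-month replicate 3 its change was 0.49, below the 0.52 of B2m in the same setting. Its signal was 172 to 507 (median 284) in the older mice and 51.7 to 295 (median 190) in the young, so that the groups overlapped. All 14 older mice were above the 2-month mean of the log2 values, and 13 above that of the signals. H2-M3, which presents N-formylated peptides of bacteria and mitochondria, was at 157 to 319 (median 222) at 15 months and at 77.7 to 226 (median 153) at 2 months in 102731_g_at. Here 5 of the 9 young mice lay below every older mouse, and again all 14 older mice were above the 2-month mean on the log2 scale and 13 on the signal scale. The change was 0.54 ± 0.14 (SE; adjusted p = 0.103), which passed only without 2-month replicate 6 (adjusted p = 0.0440). The second H2-M3 probe set, 102730_at, was below the filter, at 38.2 ± 23.7 (SD, n = 14) and 44.1 ± 25.8 (SD, n = 9), and its change was -0.14 (adjusted p = 0.910 without the filter). H2-Q10, a heavy chain that is secreted by the liver, was at 94.4 to 215 (median 133) and 45.0 to 184 (median 135), a change of 0.12 ± 0.17 (SE; adjusted p = 0.806) that turned to -0.03 without 2-month replicate 2.

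**Figure D2:**
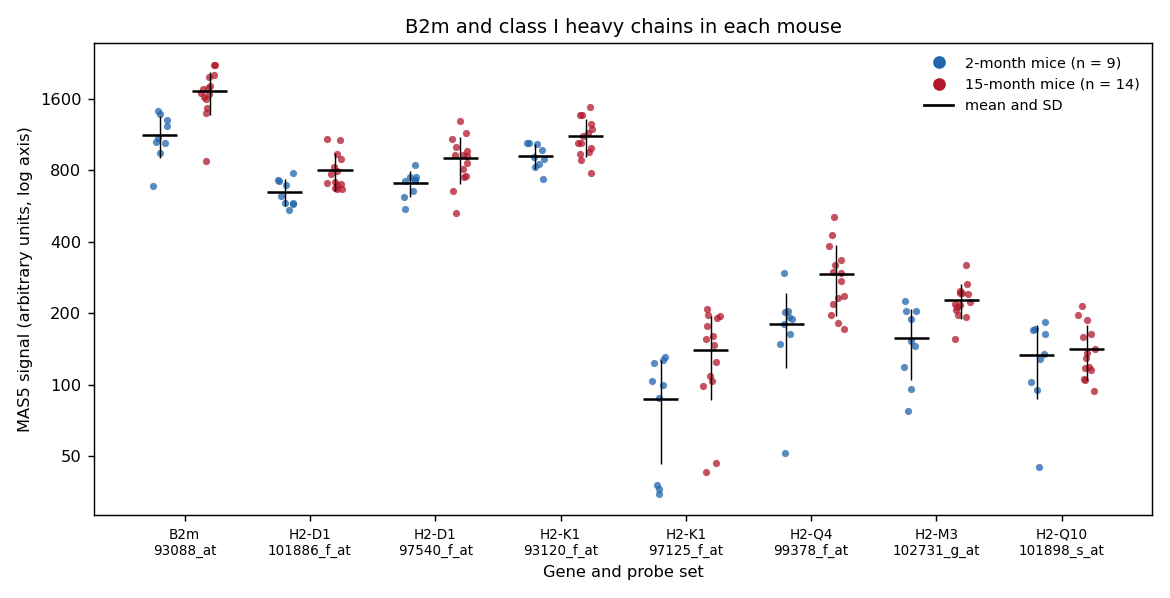
MAS5 signal of each mouse (y axis, log scale) for B2m and the tested heavy chain probe sets (x axis); blue points are the 9 mice of 2 months, red points the 14 of 15 months, and bars give the mean and SD. For B2m 12 of 14 red points lie above every blue one, while the heavy chain probe sets overlap more and H2-Q10 has nearly the same mean at both ages, 142 and 133.

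Another 3 probe sets matched several class I genes with a member among them, so no gene is named for their values. The bright one, with 10 symbols (102161_f_at), was at 447 ± 93.3 (SD, n = 14) against 340 ± 60.5 (SD, n = 9), a change of 0.37 (adjusted p = 0.172). The other 2 were below the filter, with means of 17.6 and 54.2 at 15 months and 19.1 and 51.9 at 2 months.

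The genes of peptide supply and loading had small changes, with intervals that included 0. Tap1, which forms the peptide transporter with Tap2, was at 92.0 to 210 (median 166) in the older mice and 135 to 174 (median 152) in the young (103035_at). Its fold was 1.08 (95% interval 0.932 to 1.26; adjusted p = 0.691). The dim Tap1 set 162278_r_at was at 19.7 to 122 (median 48.5) and 28.1 to 77.9 (median 57.9), with a change of -0.12 in the fit without the filter. Tap2, the partner of Tap1, was at 89.0 to 174 (median 114) and 68.0 to 153.5 (median 111), a fold of 1.09 (95% interval 0.908 to 1.30; adjusted p = 0.734).

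Tapasin bridges the transporter and the heavy chain. The 3 probe sets of Tapbp were all bright enough and had folds of 1.13 (95% interval 0.975 to 1.32) in 100154_at, 1.02 (0.910 to 1.15) in 102689_at and 1.04 (0.866 to 1.24) in 162104_f_at, with adjusted p from 0.503 to 0.896. In 102689_at, which varied least, the older mice were at 304 to 465 (median 380) and the young at 304 to 453 (median 374), ranges that nearly coincide. Psmb8, the immunoproteasome subunit, was at 140 to 231 (median 172) and 119 to 194 (median 155), a fold of 1.11 (95% interval 0.975 to 1.27; adjusted p = 0.510). The upper ends of the intervals of Tap1, Tap2, Psmb8 and 2 of the 3 Tapbp probe sets lay above the fold of the brightest H2-K1 probe set, 1.19, and that of Tapbp 102689_at lay below it. Whether the loading genes changed less than the heavy chains was not tested.

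**Figure D3:**
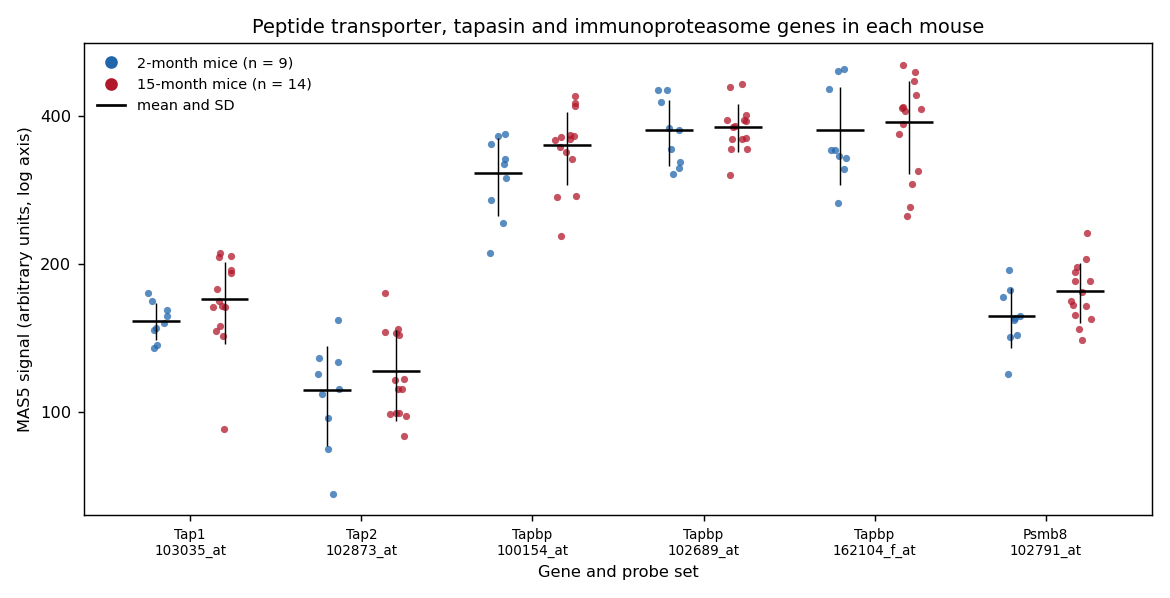
MAS5 signal of each mouse (y axis, log scale) for the tested probe sets of Tap1, Tap2, Tapbp and Psmb8 (x axis); blue points are the 9 mice of 2 months, red points the 14 of 15 months, and bars give the mean and SD. The ages overlap in every probe set, as for Tapbp 102689_at with 304 to 465 at 15 months and 304 to 453 at 2 months.

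**Figure D4:**
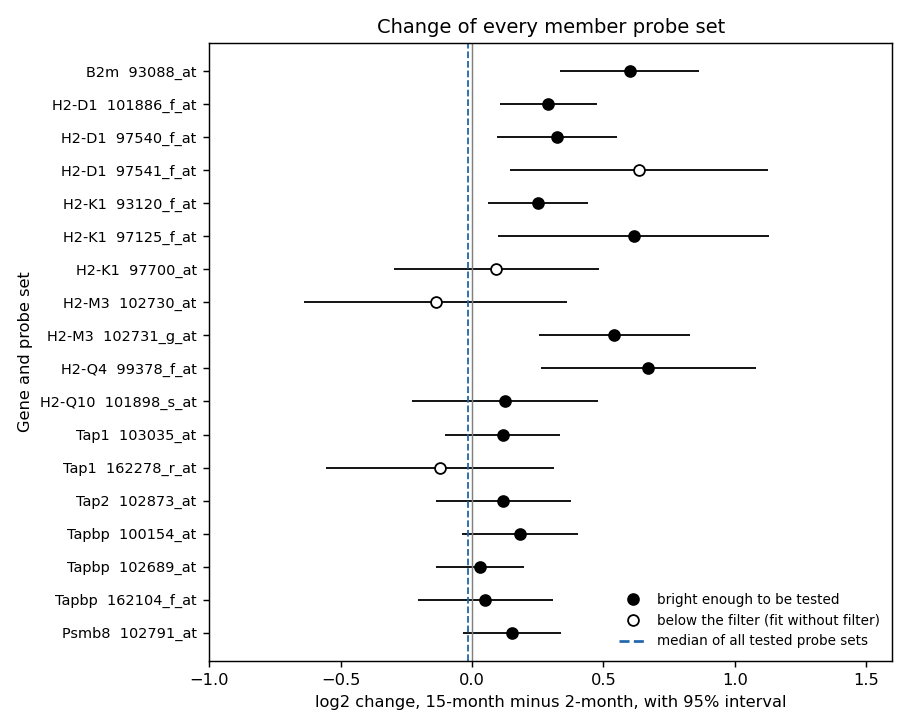
Log2 change, 15-month minus 2-month, with its 95% interval (x axis) for each of the 18 member probe sets (y axis); filled points were tested, open points lay below the filter and come from the fit without it, and the dashed line is the median of all tested probe sets, -0.02. All 14 filled points lie above 0 (45% of all tested probe sets do), from 0.03 for Tapbp 102689_at to 0.67 for H2-Q4, and the 2 points below 0 are the dim sets of H2-M3 and Tap1.

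Mice high in B2m were compared with mice high in other members within each age, so that the age difference did not enter. With the tested probe set of highest mean log2 value for each of the 9 other members, 18 correlations were computed, of which 5 had an unadjusted p under 0.05. One passed after adjustment over the 18, that of H2-Q4 at 15 months (Pearson r = 0.72, permutation p = 0.00197, adjusted p = 0.0355; Spearman rho = 0.81, permutation p = 6.5e-04, adjusted p = 0.0117; n = 14). Without the 2 mice farthest from the B2m median r was 0.72 (permutation p = 0.00869, adjusted p = 0.156). At 2 months r was 0.81 (exact permutation p = 0.0223, adjusted p = 0.144) and rho 0.43 (exact permutation p = 0.250, adjusted p = 0.456), and without the 2 farthest mice r was 0.69 (exact permutation p = 0.0702). The young mouse lowest in both, replicate 3, was at 688.5 for B2m and 51.7 for H2-Q4. Psmb8 had r = 0.59 at 15 months (permutation p = 0.0243, adjusted p = 0.144) and -0.45 at 2 months (exact permutation p = 0.222, adjusted p = 0.363). H2-Q10 ran the other way, with r = -0.53 at 15 months (permutation p = 0.0450, adjusted p = 0.162) and -0.29 at 2 months (exact permutation p = 0.430, adjusted p = 0.646). Its Spearman rho at 15 months was -0.33 (permutation p = 0.253, adjusted p = 0.456). Without the 2 farthest mice the 15-month r was 0.38 for Psmb8 (permutation p = 0.225) and -0.18 for H2-Q10 (permutation p = 0.573). Replicate 13 had the lowest B2m and Psmb8 and the highest H2-Q10 of the 15-month mice. For H2-K1 r was 0.51 at 15 months (permutation p = 0.0557, adjusted p = 0.167) and 0.01 at 2 months (exact permutation p = 0.976, adjusted p = 0.976). Tap1 had r = -0.11 at 15 months (permutation p = 0.666, adjusted p = 0.750) and -0.70 at 2 months (exact permutation p = 0.0321, adjusted p = 0.144), the latter falling to -0.26 without the 2 farthest mice.

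**Figure D5:**
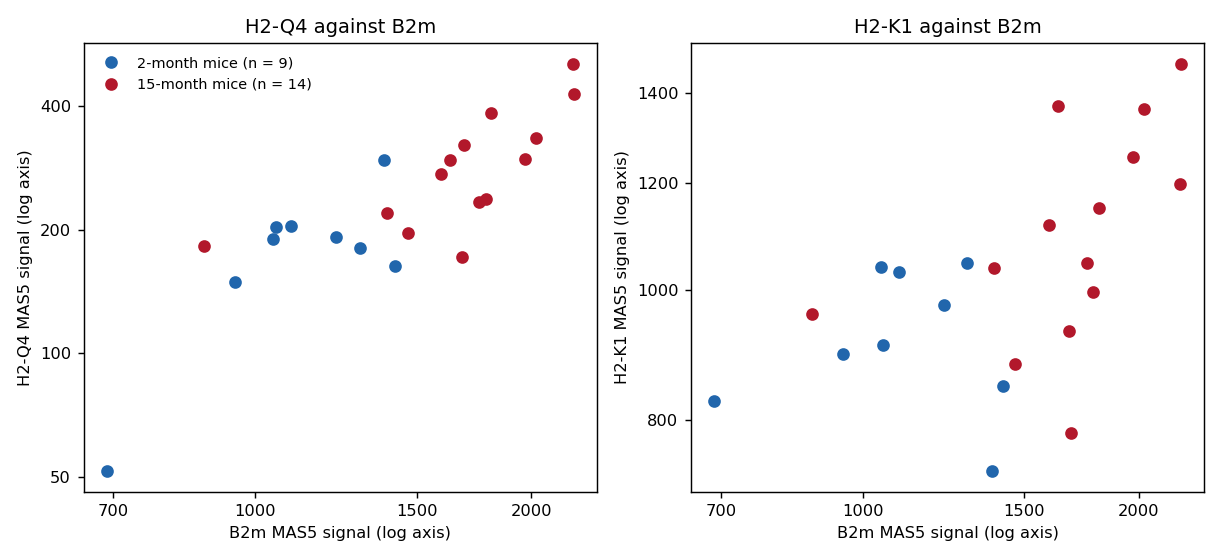
Signal of H2-Q4 (left, y axis) and H2-K1 (right, y axis) against that of B2m (x axes), all log scales, 1 point per mouse; blue points are the 9 mice of 2 months and red points the 14 of 15 months. H2-Q4 climbs with B2m among the older mice (r = 0.72) and the young mouse at the lower left is replicate 3, while H2-K1 scatters more (r = 0.51 and 0.01).

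After each age mean was subtracted, the probe sets most like B2m over the 23 mice, among those with 1 symbol and outside the members, were those of Rnf19a (Pearson r = 0.83), Mpp1 (0.80), Gtf2f2 (0.77), Sarnp (0.76) and Ephx1 (0.75), against a median of 0.03 over all tested probe sets. They hold ranks 1, 2, 3, 4 and 6 over all tested probe sets, since the set at rank 5 has no single symbol, and the values are a description. Rnf19a encodes a ubiquitin ligase, Mpp1 a membrane scaffold protein, Gtf2f2 a subunit of a general transcription factor, Sarnp an RNA-binding protein and Ephx1 an epoxide hydrolase. None of the 5 differed between the ages past the test (adjusted p 0.236 to 0.865). H2-Q4 stood at 0.75, H2-K1 97125_f_at at 0.69 and H2-D1 101886_f_at at 0.58 on this scale, while H2-M3 was at -0.10 and H2-Q10 at -0.40. The brighter sets H2-K1 93120_f_at and H2-D1 97540_f_at stood lower, at 0.37 and 0.36. Both lay below 0.52, the 95th percentile over all tested probe sets. The 2 brighter H2-D1 sets had an r of 0.57 with each other, below the 0.75 of H2-D1 97540_f_at with H2-K1 93120_f_at, probe sets of different genes whose letters mark shared probes.

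Other genes of the pathway, in lists of textbook members, gave no call. Of 15 other class I and class I-like heavy chains on the array, 6 were bright enough to be tested, 2 with a change above 0, and none passed (median change -0.13). Their lowest p was that of H2-M9, a non-classical heavy chain, at 176 ± 28.7 (SD, n = 14) against 239 ± 57.5 (SD, n = 9), a change of -0.39 ± 0.12 (SE; adjusted p = 0.147) with 0 of 14 older mice above the 2-month mean of the log2 values. H2-K2 was outside the list and is named because of its value. It had a change of 1.26 ± 0.40 (SE; adjusted p = 0.200), at 629 ± 337 (SD, n = 14) against 306 ± 224 (SD, n = 9), and its probe set is marked for shared probes.

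Of 6 tested genes of chaperones and translocation at the endoplasmic reticulum none passed (median change -0.01). Sec61a1, the pore subunit of the translocon, was lowest in p, at 1516 ± 87.8 (SD, n = 14) and 1716 ± 61.2 (SD, n = 9), a change of -0.18 ± 0.04 (SE; adjusted p = 0.0605). Canx, the chaperone calnexin, had a change of 0.01 and Pdia3, a disulphide isomerase of the loading complex, one of -0.01, and both were chosen after their values were seen. Of 6 tested proteasome genes none passed (median -0.00), with Psme3, an activator subunit, at 0.14 ± 0.06 (adjusted p = 0.303). Psmb9, a catalytic subunit of the immunoproteasome, was below the filter, at 39.9 ± 17.4 (SD, n = 14) and 29.8 ± 14.7 (SD, n = 9).

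Regulators of class I genes and interferon-induced genes gave no call either. Of 15 tested regulators 6 had a change above 0 (median -0.02), and the 3 with an unadjusted p under 0.05 were Nfya, a subunit of the factor that binds the Y box (-0.30 ± 0.11, adjusted p = 0.246), Ifnar2, a chain of the type I interferon receptor (-0.35 ± 0.12, adjusted p = 0.242), and Ifngr1, a chain of the interferon gamma receptor (0.52 ± 0.23, adjusted p = 0.361). Ifngr1 had a mean of 80.0 at 2 months, under the signal of the filter, so its place among those tested rests on the older mice. Of 8 tested interferon response genes 4 had a change above 0 (median -0.03), and 14 of the 22 on the array were below the filter. Among receptors of class I molecules only Pirb, which also binds class I on neurons, was bright enough, at 112 ± 39.9 (SD, n = 14) and 91.3 ± 31.4 (SD, n = 9), a change of 0.23 (adjusted p = 0.649). The 2-month mean of Pirb also lay just under the signal of the filter, 91.7, so that it was tested rests on the older mice.

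Markers of cells that express class I genes were set beside the members. All 14 tested microglia markers had changes above 0 (median 0.24), and 5 rose: Ctss, Ly86, Mpeg1, C1qb and C1qc. Over all tested probe sets 45% had a change above 0 and 0.335% passed as higher. Aif1, 1 of the 14, had a 2-month mean of 91.6, just under the signal of the filter, so its place among those tested rests on the older mice. The summed signal of the 18 microglia markers on the array was 11381 to 13746 at 15 months and 8877 to 11178 at 2 months, without overlap. Bright genes weigh most in this sum, such as Ctss, already called above, with means of 2443 at 15 months and 1725 at 2 months. Other markers, picked here for their values, did not rise: the changes of Csf1r and Cx3cr1 were both 0.01 and that of Cd68 was 0.02. Itgb2, below the filter, had a lower mean at 15 months, 58.8 against 71.0. Of 12 endothelial markers 1 rose, Slc2a1, with a median change of 0.05 and a summed signal of 3875 to 6372 against 3460 to 4986. The part of these cells in the rise of B2m was not tested. Markers of T cells were near the bottom of the scale at both ages: the means of Cd3d, Cd3e, Cd3g, Cd8a and Cd8b1 were between 7.28 and 30.1. Of the 14 T and natural killer cell markers on the array 2, Cd4 and Zap70, were bright enough to be tested, and neither passed. The summed signal of this list was 601 to 1385 at 15 months and 711 to 1528 at 2 months. Meningeal markers overlapped between the ages as well, at 5227 to 14810 and 5314 to 12401, with none of 8 past the test.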

How the data were processed

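RNA of the whole hippocampus was measured on 23 arrays, 1 per mouse. The authors deposited intensities on a linear scale. The submitters' processing notes name MAS5, with no version, and its settings were not stated there. The mean of each array over all 12488 probe sets, controls included, with 2% trimmed at each end, was 500.3, so the deposited scaling was kept. Detection calls and scanner files were not used here. The number of arrays limits the precision.

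The platform annotation named the probe sets: 10833 of 12422 non-control probe sets had 1 symbol, 396 several and 1193 none, and 66 controls were left out. Signals were analysed as log2(signal + 16), which understates changes of dim genes, with limma 3.58.1 in R 4.3.3 (eBayes with trend and robust variance), two-sided, with a false discovery rate of 0.05. The fit was tested on simulated data with known shifts, where most of the smallest shifts were not called. Alternatives were pseudocounts of 1 and 64, no filter or the 60th percentile, quantile normalisation, a plain variance model, array weights, the 25th percentile of each array as a covariate, Mann-Whitney tests and leaving out arrays. Correlations used 100000 permutations, or all pairings for 9 mice. Mann-Whitney tests were exact. Python 3.11.15, numpy 2.4.6, scipy 1.17.1, pandas 2.3.3 and matplotlib 3.10.9 were used.

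Named were all members, up to 4 genes of each pathway list with an unadjusted p under 0.05, and the 5 probe sets with 1 symbol most like B2m. Canx, Pdia3, Psmb9, Pirb, H2-K2 and the markers named singly fall outside this rule and were picked with their values in view. In a list, each gene was read from its probe set of highest mean among those with 1 symbol. The members and lists were chosen with earlier results of these data known, and the promoter motifs after looking at the members' sequences. The p-values set the age difference against the spread between these mice, and they cannot separate age from sample order. No batch was named in the labels. Marker lists not described above gave 0 calls among 3 B cell, 2 blood cell, 6 oligodendrocyte and 3 choroid plexus markers tested (at an unadjusted p under 0.05: 0, 1, 2 and 0), and 1 (S100b, higher) among 6 astrocyte markers.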

Additional observations from a re-analysis of the deposited data

How the results depend on the processing

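No paired analysis was possible because the titles give the mice running numbers that the ages do not share. Of the member probe sets 1 was called, and 0 to 2 when each mouse was left out in turn, 0 without the 4 arrays of low 99th percentile and 0 with the Mann-Whitney test. Over the array 28 probe sets were called, 20 to 39 when each mouse was left out and 60 with the 25th percentile of each array as a covariate. The cause was not tested. No tested member turned its direction with another pseudocount, quantile normalisation or array weights. The other filter settings, of which the 60th percentile kept 7 of 14, and the plain variance model leave each log2 change as it is. They therefore cannot turn a direction. With each mouse left out in turn, H2-Q10 ranged from -0.026 (without 2-month replicate 2) to 0.19, Tapbp 102689_at from -0.0031 (replicate 8) to 0.066 and Tapbp 162104_f_at from -0.0045 (replicate 7) to 0.10, and the last was at -0.014 without the 4 arrays. The correlation of B2m with H2-Q4 was the 1 of 18 called, and 0 were called without the 2 farthest mice, a setting in which fewer mice are compared. There r turned to 0.21 for H2-M3, 0.062 for Tap1 and 0.035 for Tapbp at 15 months and to -0.26 for H2-D1 and -0.32 for H2-K1 at 2 months. With quantile normalisation it turned to 0.0058 for Tap1 at 15 months and -0.045 for H2-K1 at 2 months. Signals near the filter, as those of Tap2 and H2-Q10, limit what small changes can be seen.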
